A study of Mus musculus with 6 samples.

Results

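The network of eyes absent (Eya), sine oculis homeobox and dachshund (Dach) genes was followed through 8 listed genes, Eya1, Eya2, Eya3, Eya4, Six2, Six4, Six5 and Dach1, of which 7 were found among the 18112 genes measured. They were selected by name, with Eya2 chosen by its near-complete loss in the Smyd2 SMC-/- libraries, so the genotype difference of Eya2 is a description and was given no test. Dach1 was not analysed here. RNA-seq was carried out on cultured primary vascular smooth muscle cells (VSMCs) from the mouse aorta, with 3 libraries of Smyd2 fl/fl cells (controls) and 3 of Smyd2 SMC-/- cells (knockout), to ask which genes depend on the lysine methyltransferase SMYD2. Both genotypes were C57BL/6 and carried loxP-flanked Smyd2 on both alleles, and Smyd2 SMC-/- mice carried in addition the Tagln-Cre (SM22α-Cre) transgene. Controls were littermates without the transgene, so the presence of Cre and the loss of Smyd2 cannot be told apart. The Tagln promoter is also active outside smooth muscle, among other places in heart muscle and myeloid cells. By the study's methods the mice were 8 to 10 weeks old, and by the labels the cells were at passage 6 in medium with 10% fetal bovine serum, whereas the methods give an earlier passage and overnight starvation. The labels do not say that the replicates came from separate animals, so p-values measure only the spread between these samples, which may be technical.

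EYA proteins are transcriptional coactivators that do not bind DNA themselves and also carry tyrosine phosphatase activity. They are recruited to target genes by homeodomain proteins of the sine oculis family, which Six2, Six4 and Six5 encode, while DACH proteins act in the same network mostly with corepressors. The network is known from the eye, ear, kidney and skeletal muscle, where sine oculis and EYA proteins act upstream of the myogenic regulators.

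Levels are given in FPKM, fragments scaled to transcript length and to the mapped fragments of each library. Smyd2 itself was at 7.87, 3.10 and 3.0 FPKM in control replicates 1, 2 and 3 and at 1.67, 0.40 and 0.80 FPKM in knockout replicates 1, 2 and 3, so that every library labelled Smyd2 SMC-/- lay below every control. Its log2 difference was −1.48 (limma adjusted p = 0.105, 0.0189 with the replicate block and 0.00126 in replicates 2 and 3 alone). Replicate 1 stood apart from replicates 2 and 3 in both genotypes. Spearman's rho across genes was 0.992 between control replicates 2 and 3 and 0.989 between knockout replicates 2 and 3, but 0.920 to 0.934 between replicate 1 and the others of its genotype. The fibroblast gene Dcn showed the same division, at 13.9, 311 and 256.7 FPKM in the controls and 25.6, 382.9 and 350.4 FPKM in knockout replicates 1, 2 and 3. Results are therefore given for all libraries and, where a call changed, for replicates 2 and 3 alone. That smaller fit rests on replicates 2 and 3 of each genotype, which were nearly alike. Its p-values measure only the small spread between them and do not cover replicate 1.

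Among the EYA coactivators, Eya2 was at 27.0, 24.5 and 23.5 FPKM in control replicates 1, 2 and 3. In knockout replicates 1, 2 and 3 it was at 0.03, 0.07 and 0.07 FPKM. The 3 controls were thus all high and close together, the 3 knockout libraries were all near 0, and replicate 1 did not stand apart. The means were 25.0 ± 1.83 and 0.0567 ± 0.0231 FPKM (SD, n = 3 each), a difference of −4.62 on the log2(FPKM + 1) scale, which understates changes of genes with low FPKM. Converted with estimated library depths, these levels correspond to about 3415 fragments in the controls together and 7 in the knockout libraries together. The ratio after allowance for depth was about 469, a description that rests on the 7 knockout fragments and is therefore imprecise. By the size of its fall on the log2(FPKM + 1) scale Eya2 was in place 3 among the 12565 genes tested. As Eya2 was chosen for its fall, this place is a description only. The gene (NCBI Gene 14049) lies on chromosome 2 of GRCm38 from 165595032 to 165771727 on the plus strand in the GENCODE annotation.

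Eya4 was the other Eya gene with a high level in control cells, at 20.1, 25.4 and 29.8 FPKM in control replicates 1, 2 and 3. It was at 10.8, 2.72 and 2.73 FPKM in knockout replicates 1, 2 and 3. All knockout libraries lay below all controls, with replicate 1 well above replicates 2 and 3. The means were 25.1 ± 4.83 and 5.43 ± 4.69 FPKM (SD, n = 3 each), and the log2 difference was −2.24 (standard error 0.464, 95% interval −3.35 to −1.12, limma adjusted p = 0.0627). Same-numbered libraries deviated together across genes, but replicates 2 and 3 did so across numbers as well, and the labels tie the numbers to no animal or day. With the replicate as a block the limma adjusted p was 0.0496, just under the 0.05 threshold. In replicates 2 and 3 alone the log2 difference was −2.93 (limma adjusted p = 1.04e-05), and without knockout replicate 1 it was −2.79 (limma adjusted p = 0.00432). When any other single library was left out, Eya4 missed the threshold, with limma adjusted p from 0.0987 to 0.234. Eya4 (NCBI Gene 14051) lies on chromosome 10 of GRCm38 from 23102963 to 23350786 on the minus strand.

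Eya1, a regulator of ear and kidney formation, was at 3.20, 0.33 and 0.61 FPKM in control replicates 1, 2 and 3. In knockout replicates 1, 2 and 3 it was at 0.21, 0.02 and 0.02 FPKM. The groups did not overlap, and replicate 1 held the highest value of each. Its level was low outside control replicate 1, and the log2 difference of −0.95 had a 95% interval of −1.98 to 0.092 (standard error 0.433, limma adjusted p = 0.287). In replicates 2 and 3 alone the log2 difference was −0.52 (limma adjusted p = 0.0365), but Eya1 passed the filter on low values, a mean of at least 0.5 FPKM over the 6 libraries, only through the controls, mainly replicate 1. Its mean over replicates 2 and 3 of both genotypes was 0.245 FPKM, under the filter, with about 2 fragments in each of these knockout libraries. Nothing is therefore drawn from that call or from the Eya1 test over all libraries. Eya1 (NCBI Gene 14048) lies on chromosome 1 of GRCm38 from 14168954 to 14310235 on the minus strand.

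Eya3, the most widely expressed Eya gene, was at 10.1, 11.4 and 11.5 FPKM in control replicates 1, 2 and 3. It was at 10.2, 8.61 and 10.4 FPKM in knockout replicates 1, 2 and 3. These ranges overlapped. The log2 difference was −0.17, with a standard error of 0.137 and a 95% interval of −0.50 to 0.16 (limma adjusted p = 0.561). Eya3 (NCBI Gene 14050) lies on chromosome 4 of GRCm38 from 132638987 to 132724765 on the plus strand. No run of 100 bases was shared between the matched transcripts of any pair of the 4 Eya genes. Matched were 3 of 14 listed transcripts of Eya1, 3 of 4 of Eya2, 3 of 6 of Eya3 and 1 of 17 of Eya4. The other transcripts were not compared.

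**Figure D1:**
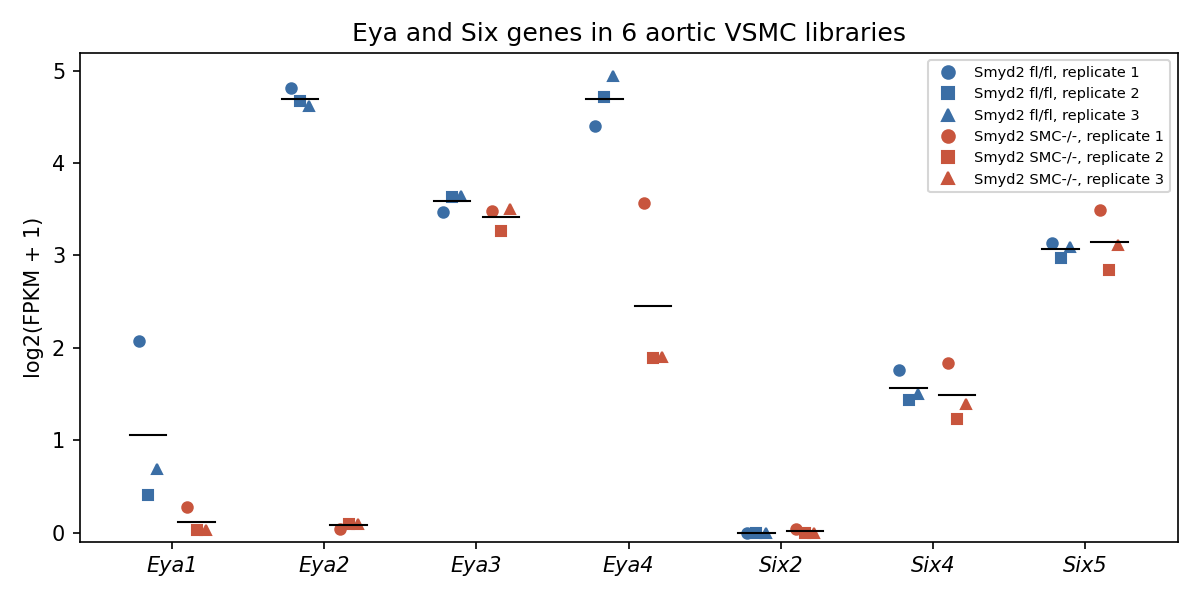
Levels of the Eya genes and of Six2, Six4 and Six5 in every library as log2(FPKM + 1), with Smyd2 fl/fl in blue, Smyd2 SMC-/- in red, a symbol for each replicate number and a line at the group mean of 3 libraries. Eya2 is near 0 in all 3 knockout libraries, Eya4 is lower in them with replicate 1 in between, and Eya3, Six4 and Six5 overlap between genotypes.

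Because Eya2 was chosen by its loss, sums and shares that include it are a description. The summed level of the 4 genes was 60.5, 61.6 and 65.4 FPKM in control replicates 1, 2 and 3 and 21.2, 11.4 and 13.2 FPKM in knockout replicates 1, 2 and 3. Eya2 made up 44.7%, 39.7% and 35.9% of this sum in the controls and 0.141%, 0.613% and 0.531% in the knockout libraries. Eya3, whose own level overlapped between genotypes, made up 16.7%, 18.6% and 17.6% of the sum in the controls and 47.8%, 75.4% and 78.6% of the lower sum in the knockout libraries. The sum without Eya2, which chose the gene set, was 33.4, 37.1 and 41.9 FPKM in the controls and 21.2, 11.3 and 13.1 FPKM in the knockout libraries, and most of its difference lay in Eya4. In control cells Eya4 and Eya2 had the highest levels of all 7 genes and overlapped each other, followed without overlap by Eya3 and then Six5. In Smyd2 SMC-/- cells Eya3 had the highest mean, and its range overlapped that of Six5, whose range in turn overlapped that of Eya4.

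**Figure D2:**
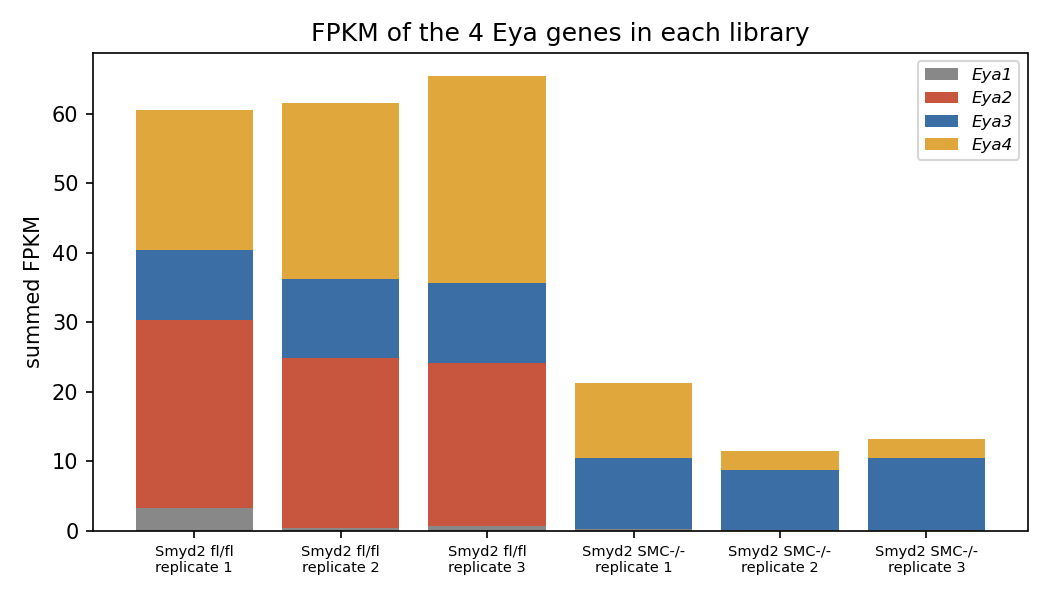
Stacked FPKM of Eya1, Eya2, Eya3 and Eya4 in each of the 6 libraries. The sum is between 60.5 and 65.4 FPKM in the controls and between 11.4 and 21.2 FPKM in Smyd2 SMC-/-, where Eya2 is too low to be seen and Eya3 stays near its control level.

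Of the homeodomain partners, Six4 was at 2.40, 1.70 and 1.83 FPKM in control replicates 1, 2 and 3. In knockout replicates 1, 2 and 3 it was at 2.57, 1.34 and 1.63 FPKM. Replicate 1 was the highest library of each genotype, and the ranges overlapped. The log2 difference was −0.081, with a standard error of 0.218 and a 95% interval of −0.60 to 0.44 (limma adjusted p = 0.885), and its sign turned when single libraries were left out. Six4 (NCBI Gene 20474) lies on chromosome 12 of GRCm38 from 73099609 to 73113456 on the minus strand.

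Six5, a neighbour of the myotonic dystrophy kinase gene Dmpk, was at 7.77, 6.87 and 7.54 FPKM in control replicates 1, 2 and 3. It was at 10.2, 6.17 and 7.63 FPKM in knockout replicates 1, 2 and 3. The Smyd2 SMC-/- range enclosed the control range. The log2 difference was 0.079, with a standard error of 0.193 and a 95% interval of −0.38 to 0.54 (limma adjusted p = 0.871), and it was −0.060 in replicates 2 and 3 alone. Six5 (NCBI Gene 20475) lies on chromosome 7 of GRCm38 from 19094594 to 19098549 on the plus strand. Six2, a regulator of kidney progenitors (NCBI Gene 20472), was listed at 0 in 5 libraries and at 0.03 FPKM, about 1 fragment, in knockout replicate 1, and was not tested.

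Of the 6 members other than Eya2 in the table, 5 passed the filter of a mean of at least 0.5 FPKM. None of Eya3, Eya4, Six4 and Six5 met the call rule, a limma adjusted p under 0.05, in either direction. Across all 12565 tested genes 1.21% were lower and 1.23% higher in Smyd2 SMC-/- by that rule. Of these members only Eya4 had an unadjusted limma p under 0.05, and it was lower. By that measure 11.2% of all tested genes were lower and 9.16% higher. With the replicate block Eya4 was lower and none was higher, where 5.72% of all tested genes were lower and 4.72% higher. In replicates 2 and 3 alone Eya4 was lower and no member was higher, where 17.2% of all tested genes were lower and 11.9% higher. Every Smyd2 SMC-/- library lay below every control in Eya4, as in 15% of all tested genes, and no tested member lay above every control, as did 13.1% of all tested genes. Eya1, the other member that passed the filter, is left out of these counts, since it passed only through its control values.

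Sine oculis proteins are known to bind the MEF3 motif, TCAGGTTTC, first described in muscle genes. Promoter windows from 250 bases before to 50 bases after the start, from RefSeq on GRCm38.p6, were matched for 5 of the 7 genes, Eya3, Eya4, Six2, Six4 and Six5, and were searched on both strands. The motif was found in 1 of the windows of Six4, and in 0.429% of 32851 windows of all genes. The site is shown because it is the only MEF3 match among the members' windows, with the motif in capitals as it reads on the gene's strand, in reverse complement, at chr12:73113326-73113354 on the minus strand.
Six4: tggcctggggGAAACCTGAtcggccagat
This site lies in an annotated exon, and the match describes the letters only. A CArG box, the element bound by SRF in smooth muscle genes, was found in none of the members' windows, and in 1.63% of all windows.

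From the list of further sine oculis, Dach and Pax genes 11 are described, and 9 of these had a row. None of these 9 reached the mean of 0.5 FPKM. Six3, Six6, Pax3, Pax5, Pax6 and Pax7 stayed under 0.1 FPKM in every library. Pax9, a patterning factor of pharyngeal pouches and the axial skeleton, was at 0.44, 0.37 and 0.38 FPKM in the controls and 0.04, 0.05 and 0.01 FPKM in knockout replicates 1, 2 and 3. Its groups did not overlap, but it was below the filter and was not tested.

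Of the 16 listed cofactors, which include the Groucho-type corepressors and the histone deacetylases and acetyltransferases, 15 were tested, and limma called 1 lower and 0 higher, beside 1.21% and 1.23% of all tested genes. The unadjusted limma p was under 0.05 for 3 that were lower and 0 that were higher, beside 11.2% and 9.16% of all tested genes. The median log2 difference of the 15 was −0.22, where that of all tested genes was −0.018. Tle4, a Groucho corepressor, was at 4.48, 3.44 and 3.97 FPKM in control replicates 1, 2 and 3 and at 1.47, 1.47 and 1.89 FPKM in knockout replicates 1, 2 and 3, without overlap. Its log2 difference was −0.93 (95% interval −1.33 to −0.52, limma adjusted p = 0.0474), and it missed the threshold when any 1 library other than knockout replicate 1 was left out, with limma adjusted p up to 0.188, as well as with no filter on low values (limma adjusted p = 0.058) and after rescaling to TPM (limma adjusted p = 0.0665). Tle4, Tle6 and Aes were lower in replicates 2 and 3 alone, which makes 3 of the 15 lower and 0 higher, beside 17.2% and 11.9% of all tested genes. Tle6 went the other way in replicate 1, at 9.52 FPKM in the control and 11.6 FPKM in the knockout. Its log2 difference over all libraries was −0.26 (limma adjusted p = 0.556), and its groups overlapped. Aes, a short Groucho-family protein and the most abundant cofactor, was at 452.1, 450.8 and 428.7 FPKM in control replicates 1, 2 and 3 and at 289.5, 332.4 and 297.6 FPKM in knockout replicates 1, 2 and 3. The groups did not overlap, and the log2 difference was −0.53 (limma adjusted p = 0.0692, or 0.0409 with the replicate block). Every knockout library lay below every control in 3 of the 15 cofactors, Tle4, Aes and Hdac1, and above every control in 0. The shares of all tested genes were 15% and 13.1%. Sobp was listed at 0 in 5 libraries and at 0.02 FPKM in knockout replicate 1.

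Of genes reported as targets of the network in other tissues 16 are described, of which 12 had a row and 9 were tested. Limma called 0 lower and 1 higher, beside 1.21% and 1.23% of all tested genes, and the unadjusted p was under 0.05 for 1 that was lower and 2 that were higher, beside 11.2% and 9.16% of all tested genes. The counts were 0 lower and 2 higher in replicates 2 and 3 alone, Igfbp5 and Cdkn1a, where 17.2% of all tested genes were lower and 11.9% higher. The median log2 difference of the 9 was 0.29. The gene that rose was Igfbp5, which encodes a secreted IGF-binding protein. It was at 3.36, 2.95 and 2.74 FPKM in control replicates 1, 2 and 3 and at 126.1, 49.7 and 40.1 FPKM in knockout replicates 1, 2 and 3. No library overlapped, replicate 1 was the highest of each genotype, and the log2 difference was 4.0 (95% interval 3.03 to 4.98, limma adjusted p = 0.00906). Without control replicate 2 the limma adjusted p was 0.0611, and without replicate 3 of the controls it was 0.0615. Cdkn1a, which encodes the cell cycle inhibitor p21, was at 159.2, 161.7 and 154.3 FPKM in the controls and 222.9, 251.8 and 222.4 FPKM in knockout replicates 1, 2 and 3. Its groups did not overlap, with a log2 difference of 0.55 (limma adjusted p = 0.0638, or 0.0371 with the replicate block). Cxcl12, the most abundant target, had a log2 difference of 1.32 with a 95% interval of −0.38 to 3.03 (limma adjusted p = 0.359). Every knockout library lay above every control in 3 of the 9 targets, Igfbp5, Cdkn1a and Cxcl12, and below every control in 1, Myc. The shares of all tested genes were 13.1% and 15%. Myf6, a muscle regulator downstream of sine oculis proteins, stayed under 0.1 FPKM in every library.

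EYA phosphatases act on the tyrosine mark of histone H2A.X set by the kinase Baz1b. All 7 listed genes of this DNA damage branch were tested, and limma called 0 of them in either direction, beside 1.21% lower and 1.23% higher of all tested genes. An unadjusted p under 0.05 was also found for 0 of them, beside 11.2% lower and 9.16% higher. Their log2 differences ran from −0.29 to 0.25, with a median of 0.023.

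**Figure D3:**
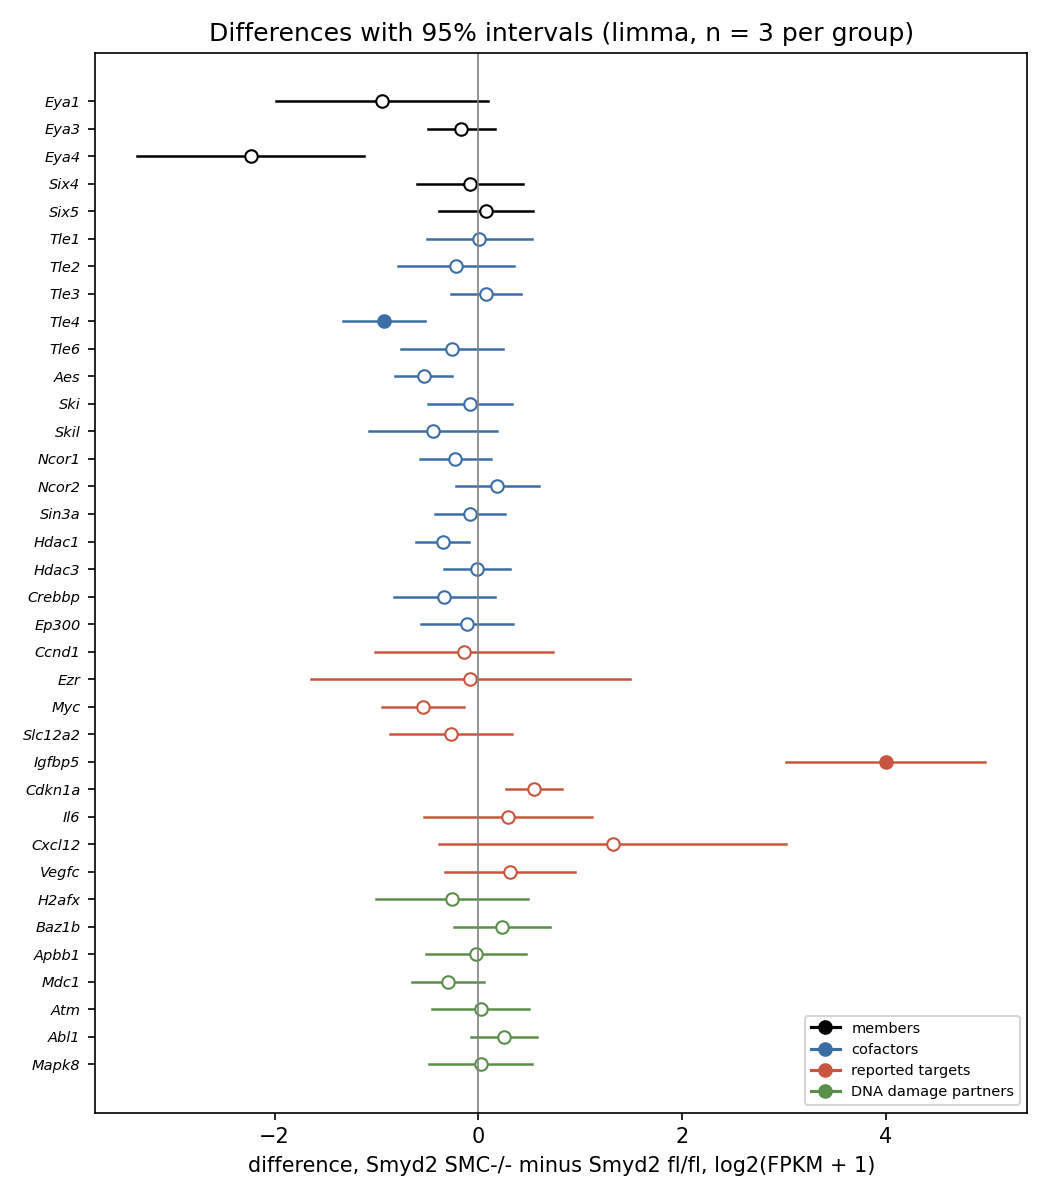
Difference between Smyd2 SMC-/- and Smyd2 fl/fl in log2(FPKM + 1) for the 5 tested members and the tested cofactors, described targets and DNA damage partners, with 95% intervals from limma (n = 3 per group) and filled points at an adjusted p under 0.05. Tle4 and Igfbp5 are filled, and Eya4 lies well below 0 with a wide interval.

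None of the measured genes beside Eya2 had a loss of its size. In the order of the GRCm38.p6 RefSeq annotation, 5 of the 6 nearest protein-coding genes had a row. Slc2a10, next to Eya2 on one side, was at 2.87, 2.59 and 2.29 FPKM in control replicates 1, 2 and 3 and at 5.49, 3.99 and 3.68 FPKM in knockout replicates 1, 2 and 3. It was thus higher in each Smyd2 SMC-/- library than in any control, as were 13.1% of all tested genes. Its log2 difference was 0.58 (95% interval 0.13 to 1.02, limma adjusted p = 0.155). In replicates 2 and 3 alone its limma adjusted p was 0.0319. Zmynd8, next to Eya2 on the other side, had a log2 difference of −0.19 with a 95% interval of −0.73 to 0.35 (limma adjusted p = 0.702). Trp53rka and Ncoa3 had log2 differences of 0.10 and −0.062 (limma adjusted p = 0.763 and 0.922), and Slc13a3 was at 0.26 FPKM or less in every library. Beside Eya4, the ribosomal protein gene Rps12 was at 623.7, 1255 and 1057 FPKM in the controls and at 414.5, 522.2 and 559.0 FPKM in knockout replicates 1, 2 and 3. Every knockout library of Rps12 lay below every control, as in 15% of all tested genes. The log2 difference was −0.92 (limma adjusted p = 0.136, 0.0338 with the replicate block and 0.0015 in replicates 2 and 3 alone). Dmpk, beside Six5, had a log2 difference of 0.45 (limma adjusted p = 0.603, or 0.00434 in replicates 2 and 3 alone). Xkr8 beside Eya3, Srbd1 beside Six2 and Mnat1 beside Six4 had log2 differences of 0.26, −0.21 and −0.12. Their limma adjusted p was 0.569, 0.482 and 0.806, and 0.468, 0.125 and 0.161 in replicates 2 and 3 alone.

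**Figure D4:**
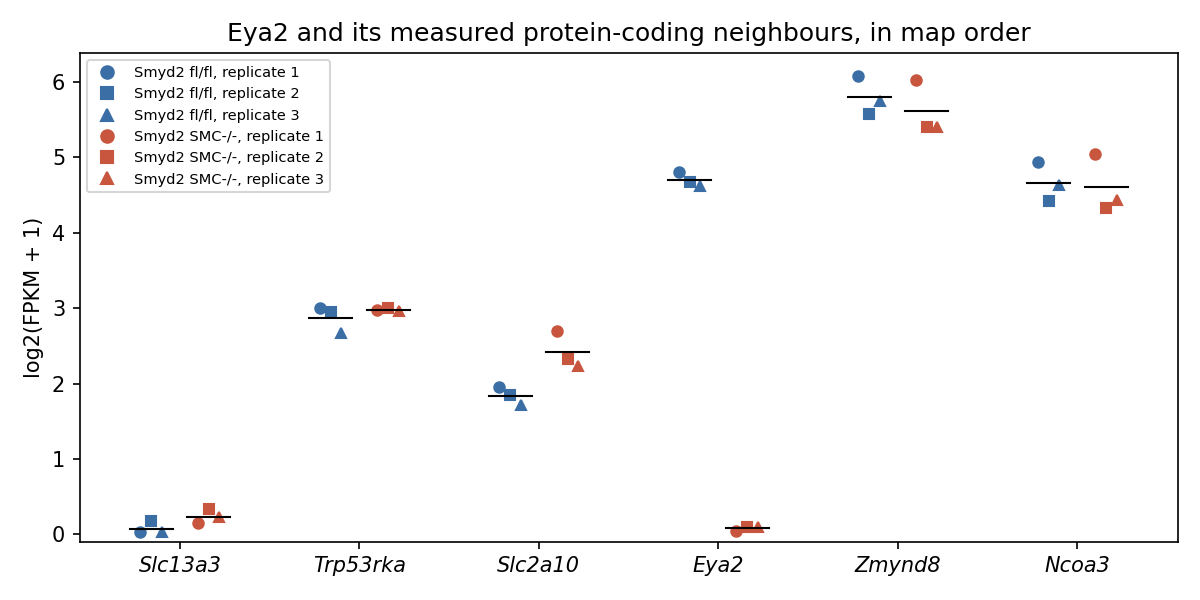
Levels of Eya2 and its 5 measured protein-coding neighbours in map order, as log2(FPKM + 1), with a point for each of 6 libraries and a line at each group mean. Eya2 alone falls to near 0 in Smyd2 SMC-/-, and Slc2a10 lies higher there in all 3 libraries.

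Likeness to Eya2 was measured as Pearson's r of log2(FPKM + 1) over the 6 libraries, among 9746 tested genes with a highest value of at least 5 FPKM. As the libraries fall into separate genotypes, a gene that divides them cleanly has an r near its limits, and r is given as a description. Pcdhgb2, Chmp2b, Gpsm3 and Capn1 were among the 5 genes with the highest r, at 0.997, 0.997, 0.996 and 0.995. Pcdhgb2, a clustered protocadherin, was at 17.4, 18.8 and 18.9 FPKM in the controls and 3.97, 3.76 and 3.48 FPKM in knockout replicates 1, 2 and 3. Zfp651, Pcdhgb4, Tfpi, an unnamed gene and Galnt11 had the lowest r, from −0.999 to −0.997. Pcdhgb4, of the same protocadherin cluster as Pcdhgb2, was at 0, 0.03 and 0.03 FPKM in the controls and 13.7, 15.7 and 16.7 FPKM in knockout replicates 1, 2 and 3. Tfpi, an inhibitor of coagulation, was at 0.44, 0.61 and 0.30 FPKM in the controls and 28.2, 26.5 and 29.1 FPKM in knockout replicates 1, 2 and 3. Replicate 1 stayed with its genotype in these genes, which their choice by likeness to Eya2 fixed. The genes most like Eya4 were Mob2, Sertad4 and Palm, with r of 0.995, 0.994 and 0.993, and that knockout replicate 1 was the nearest of its group to the controls in each of them follows from their choice by likeness to Eya4.

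**Figure D5:**
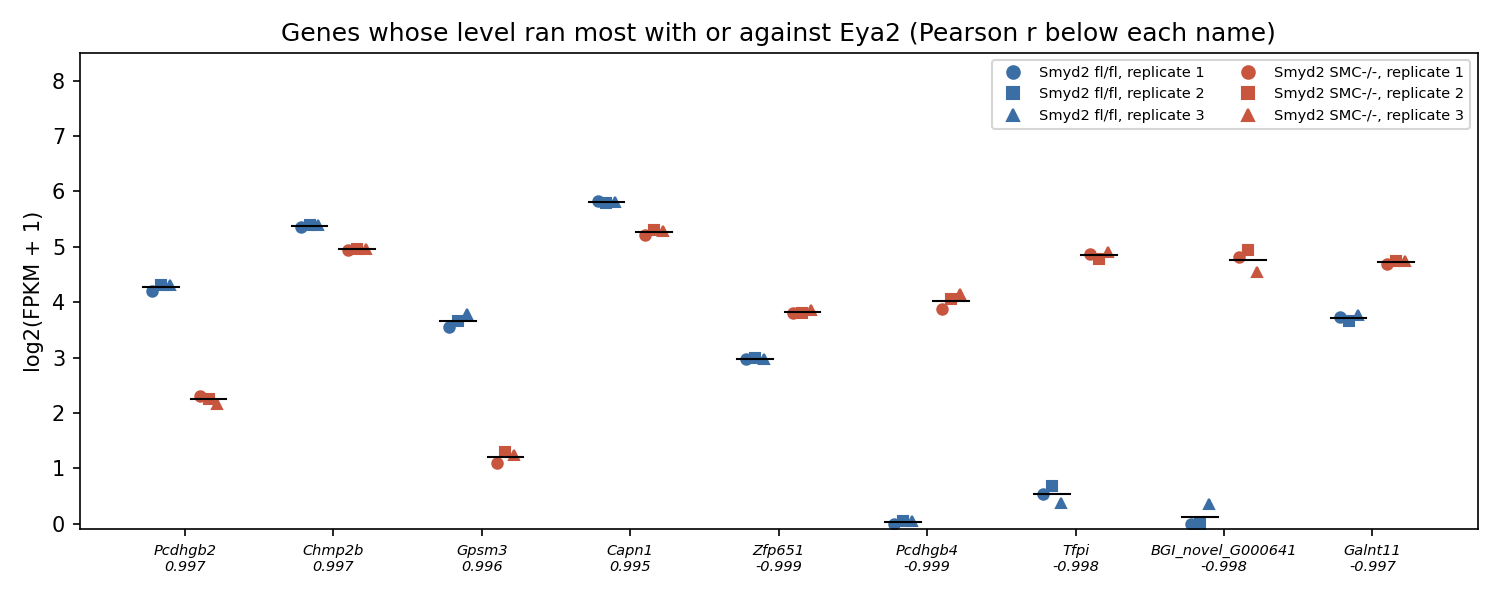
Levels of genes whose log2(FPKM + 1) had the highest and lowest Pearson's r with Eya2 over 6 libraries, with r under each name, a point per library and a line at each group mean. Genes with positive r are lower and genes with negative r higher in all 3 knockout libraries, with little spread within a genotype.

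Markers of smooth muscle and of other cell types were set beside these levels, since in bulk RNA fewer cells of a type and less RNA per cell cannot be told apart. Acta2, the smooth muscle actin, was at 761.5, 682.4 and 683.0 FPKM in the controls and 200.9, 267.9 and 262.1 FPKM in knockout replicates 1, 2 and 3, a log2 difference of −1.55 (limma adjusted p = 0.00803). It was the most abundant of 7 smooth muscle markers, and 1 of the 5 tested was lower and 0 were higher, beside 1.21% and 1.23% of all tested genes. Within replicates 2 and 3 alone Acta2 was lower and Lmod1 higher, where 17.2% of all tested genes were lower and 11.9% higher. Lmod1, a leiomodin, was at 3.28, 2.71 and 2.83 FPKM in control and 1.22, 5.44 and 6.02 FPKM in knockout replicates 1, 2 and 3, with a log2 difference of 0.83 in replicates 2 and 3 alone (limma adjusted p = 0.00335). Tagln was at 80.5, 79.1 and 70.3 FPKM in control and 12.5, 87.3 and 57.1 FPKM in knockout replicates 1, 2 and 3, and Cnn1 at 21.0, 4.86 and 5.11 FPKM and 2.70, 5.07 and 4.32 FPKM, so that both were lower in the knockout mainly in replicate 1. Over all libraries the log2 differences of Tagln, Cnn1 and Smtn were −0.92, −0.91 and −0.050 (limma adjusted p = 0.496, 0.399 and 0.90), and in replicates 2 and 3 alone they were −0.077, −0.075 and 0.052 (limma adjusted p = 0.802, 0.704 and 0.815). The summed level of the 7 markers was 922.0, 821.2 and 814.0 FPKM in the controls and 263.3, 428.9 and 376.5 FPKM in the knockout libraries. The mature marker Myh11 stayed at or under 0.22 FPKM in all libraries. Myocd was at 0.48 FPKM in control replicate 1 and at or under 0.02 FPKM in every other library. In these libraries RNA of both defining markers was thus nearly absent from cells labelled smooth muscle. By the study's methods each batch of isolated cells was checked by staining for smooth muscle actin. The study also reports Myh11 and Myocd RNA by RT-qPCR in cells of these genotypes. Of 5 tested fibroblast markers 1 was lower, Dpt, and 0 were higher, beside the same shares of all tested genes, 1.21% and 1.23%. Dpt was at 143.9, 90.3 and 65.5 FPKM in the controls and 3.31, 1.15 and 0.63 FPKM in knockout replicates 1, 2 and 3, a log2 difference of −5.28 (limma adjusted p = 0.00417). Taken over replicates 2 and 3 alone, 3 were lower, Dpt, Pdgfra and Pi16, and 1 was higher, Lum, beside 17.2% and 11.9% of all tested genes. Lum, a matrix proteoglycan, was at 0, 1.31 and 1.17 FPKM in control and 0.26, 14.5 and 10.4 FPKM in knockout replicates 1, 2 and 3, with a log2 difference of 2.57 in replicates 2 and 3 alone (limma adjusted p = 7.4e-05). Pdgfra, a growth factor receptor, had a log2 difference of −2.21 there (limma adjusted p = 0.00012). The summed fibroblast level was 177.1, 442.1 and 361.3 FPKM in the controls and 41.4, 406.4 and 369.6 FPKM in the knockout libraries, and it overlapped between genotypes. Dcn had the highest mean of this list, although Dpt was higher in control replicate 1. The chondrocyte list had 1 tested marker, Sox9, at 20.7, 15.5 and 17.1 FPKM in the controls and 10.3, 6.22 and 8.82 FPKM in knockout replicates 1, 2 and 3 (limma adjusted p = 0.0615, 0.0183 with the replicate block and 0.00325 in replicates 2 and 3 alone), and Col2a1 was at 0.23 FPKM or less. Of the 6 tested endothelial, macrophage, cardiac or skeletal muscle, epithelial and Schwann cell markers, limma called none, beside 1.21% and 1.23% of all tested genes, and the unadjusted p was under 0.05 for 1 that was lower and 2 that were higher, beside 11.2% and 9.16% of all tested genes. In replicates 2 and 3 alone 4 of these 6 were called, with Tnnt2 and Cdh1 lower and Kdr and Csf1r higher, where 17.2% of all tested genes were lower and 11.9% higher. The endothelial gene Pecam1 lay the other way from Kdr, at 0.56, 0.88 and 0.92 FPKM in control and 0.12, 0.18 and 0 FPKM in knockout replicates 1, 2 and 3, and was below the filter and not tested. Cdh5, Tie1, Ptprc, Adgre1, Ckm, Epcam and Sox10 stayed under 0.1 FPKM in every library. The part of these cell type differences in the levels of Eya2 and Eya4 was not tested.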

How the data were processed

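Reads were aligned by the authors with HISAT and Bowtie2, and RSEM gave the FPKM values that they deposited, per the methods and the submitters' processing notes. Versions and genome build are not given in the sources used here. The deposited FPKM values, with 2 decimals, were taken to log2 after adding 1. A filter of mean FPKM at or above 0.5 kept 12565 of 18112 genes. Genotypes were compared in limma 3.58.1 (R 4.3.3, empirical Bayes with trend and robust options), p-values were adjusted by Benjamini-Hochberg over all tested genes, and an adjusted p under 0.05 was a call. Python 3.11.15, numpy 2.4.6, pandas 2.3.3 and matplotlib 3.10.9 were used for tables and plots. Same-numbered libraries, numbered in the labels, deviated together from their group means (correlations 0.61, 0.46 and 0.53), so the number was also fitted as a replicate block; control 2 with knockout 3 and control 3 with knockout 2 had 0.46 and 0.44, so the main division was replicate 1 against the others, and no source gives the numbers a shared animal or day. Depths of 16850000 to 19500000 fragments were estimated from steps between low FPKM values. For each library the depth was chosen that brought most of these values, 66.5% to 72.1%, within 0.15 of a whole fragment. Chance gives 30% at a fixed depth and more at a depth chosen in this way, so the 30% is no fair yardstick. The fragment length with the best fit among those tried was 50 bases, shorter than the sequenced reads, so fragment counts are approximate. Positions came from GENCODE M21, matched by RefSeq transcript.

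Genes named are the members, fixed lists of network genes, cofactors, targets, DNA damage partners and cell type markers, Smyd2, the 3 protein-coding genes on each side of Eya2 and 1 on each side of the other members, the 5 genes most and the 5 least like Eya2, and the 3 most like any other member called with or without the block. Members and lists were chosen with earlier results of these data known. From them, 3 genes that met the rules are not reported here.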

Additional observations from a re-analysis of the deposited data

How the results depend on the processing

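The main comparison called 152 genes lower and 154 higher. The counts were 719 and 593 with the replicate block, 1398 and 1152 with a block for replicate 1 against the others, 2156 and 1494 in replicates 2 and 3 alone, 26 and 27 at a fold change above 2 with an adjusted p under 0.01, and 99 and 247 after rescaling to TPM, which moved the median log2 difference of all genes by 0.11. Leaving out 1 library gave 16 to 313 lower and 16 to 373 higher genes, with the highest counts without Smyd2 SMC-/- replicate 1. Leaving out any library but replicate 1 of either genotype gave at most 28 lower and 27 higher genes.

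Of 31 tested cofactors, targets and DNA damage partners, with the members not included, 1 was lower and 1 higher, beside 1.21% and 1.23% of all tested genes. These counts were 2 and 2 with the replicate block (5.72% and 4.72% of all tested genes), 3 and 2 with the block for replicate 1 (11.1% and 9.17%), 3 and 2 in replicates 2 and 3 alone (17.2% and 11.9%), 0 and 2 after TPM (0.788% and 1.97%), and 1 and 2 after quantile normalization (1.34% and 1.39%). Leaving out 1 library gave 0 to 1 lower and 0 to 1 higher, beside 0.127% to 2.49% and 0.127% to 2.97% of all tested genes.

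The log2 difference of Eya2 was −7.33 with a pseudocount of 0.1 and −5.69 after TPM, and −4.66 to −4.56 with 1 library left out. Eya4, at −2.24 with the replicate block (adjusted p = 0.0496) and with the block for replicate 1 (adjusted p = 0.0215), was at −2.93 in replicates 2 and 3 alone (adjusted p = 1.04e-05) and at −2.79 to −1.96 with 1 library left out (adjusted p from 0.00432 to 0.234). Over all alternatives its adjusted p ran from 1.04e-05 to 0.234. Eya1 was at −2.61 with a pseudocount of 0.1, at −1.48 after TPM and at −0.52 in replicates 2 and 3 alone (adjusted p = 0.0365, where its mean was under the filter), with adjusted p from 0.0365 to 0.551 over all alternatives and −1.27 to −0.44 with 1 library left out; the filter of at least 1 FPKM removed it. Six5 was at −0.060 in replicates 2 and 3 alone and at −0.092 to 0.23 with 1 library left out, among them −0.092 without Smyd2 SMC-/- replicate 1. Six4 was at −0.26 to 0.049 with 1 library left out, among them 0.019 without Smyd2 fl/fl replicate 1 and 0.049 without Smyd2 SMC-/- replicate 2. Eya3 kept its direction and its side of the threshold under all 14 alternatives. The cause of these changes was not tested. The replicate block changed the call of no other member. Of 211 values under alternatives, 144 kept their direction and side of the threshold or stayed within the limits set for counts and levels. Levels near 0, such as Eya2 in Smyd2 SMC-/-, rest on 1 to 3 fragments per library.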
